A study of Saccharomyces cerevisiae with 16 samples.

Results

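The comparison described here set 6 arrays of the wine yeast Saccharomyces cerevisiae that had fermented opposite the spoilage yeast Dekkera bruxellensis (mixed fermentation) against 6 arrays of the same strain that had fermented alone (control fermentation), pooled over 3 times after growth had slowed. The arrays were chosen by their labels alone: both kinds early in stationary phase (92 h), late in it (144 h) and in the decline that the labels call autolytic (187 h), which gave 12 of the 16 arrays of the series. The 4 arrays of 22 h, from exponential growth, took no part in it. Each kind had n = 2 arrays at each time.

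All cultures were the industrial strain Lalvin EC1118 in a synthetic wine must at 22 °C in bioreactors divided by a dialysis membrane. In the mixed fermentations D. bruxellensis strain ZIM 701 grew on the other side of that membrane, so that dissolved compounds could pass and cells could not, while in the controls the other side stayed sterile. Total RNA of the S. cerevisiae cells was copied into Cy3-labelled cRNA and hybridised to 1-colour arrays with 1 probe for each gene. Each extract was bulk RNA of a culture, so a change in the share of cells that expressed a gene and a change in its RNA per cell cannot be told apart. Whether replicate 1 of a kind was the same vessel at all times, and replicate 2 another, is not told by the labels. In that case the arrays are not independent samples and p-values would come out too small.

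In a wine fermentation the stationary phase begins when assimilable nitrogen or another nutrient runs out while sugar remains. Cells then go on fermenting without dividing, in rising ethanol and with almost no oxygen, and they lower the genes of ribosomes and growth while raising those of stress defence and nutrient scavenging. Without oxygen yeast cannot make sterols, and genes for sterol import and for a distinct set of cell wall mannoproteins are switched on.

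Between 95.9% and 97.6% of the spots on the 12 arrays were well above background, with median signals between 563 and 1821 units. The 2 mixed arrays of 187 h had the lowest medians, 563 and 694, against 904 and 1065 on the 2 control arrays of that time. Replicate 1 of every group lay on 1 slide and replicate 2 on another, with mixed arrays filling 1 row of a slide and control arrays another, so kind cannot be told apart from row. The first principal component held 54.6% of the variance and ordered the arrays by time, and at each time and on each slide the mixed array stood further along it than the control (at 187 h 32.8 and 32.7 against 18.3 and 14.2). Levels below are log2 signals relative to the 75th percentile of the array, differences are mixed minus control on that scale with their standard error, and adjusted p-values come from limma over all 6162 genes tested, with n = 6 arrays of each kind.

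Pooled over the 3 times, 824 genes differed (13.4% of those tested), 324 higher and 500 lower in the mixed fermentations (5.26% and 8.11%). The median difference was 0.51 for the genes that were higher and -0.40 for those that were lower, against -0.03 for all genes, whose middle range ran from -0.18 to 0.14. Doublings were rare, with 28 genes higher by at least 1 and 3 lower by at least 1. Of the 824, 822 had the same sign at 92, 144 and 187 h (322 higher and 500 lower, 5.23% and 8.11% of genes tested), whereas 55.1% of all genes tested did. The exceptions were CIN8, a mitotic kinesin, and the reading frame YDL068W, both called higher, with differences of -0.06 and -0.05 at 92 h and 0.91 and 0.94 at 187 h. Both mixed arrays lay beyond both controls at each of the 3 times for 242 of the genes called higher and 397 of those called lower, where 5.18% and 8.68% of all genes tested did so upward and downward. In all 6 pairs of the same time and slide the mixed array was higher for 295 of the 324 and lower for 436 of the 500 (8.86% and 14.2% of all genes tested). The calls were made on these same arrays, and a difference that varies between times or pairs lowers the chance of a call. These shares therefore describe the called genes and are no separate evidence for them.

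Most replicate 2 arrays weighed more in the number of genes called than any replicate 1 array. Leaving out 1 replicate 1 array left 562 to 795 genes, and leaving out replicate 2 of mixed 92 h left 722. Without the replicate 2 array of 144 h mixed fermentation 472 genes were called, and without that of 187 h 539. Without the replicate 2 control array of 92, 144 or 187 h the counts were 480, 382 and 403. Leaving out all arrays of 92, 144 or 187 h left 220 genes (102 higher and 118 lower), 9 (8 and 1) and 120 (72 and 48). Scaling to the spike-ins left 76 (66 and 10). Treating a vessel as a random block left 299 (126 higher and 173 lower). For this the same-numbered arrays of a kind were taken as 1 vessel, which the labels do not state. All 824 genes kept their sign in each of those fits. Counts of single gene lists under these settings are to be read beside these totals.

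**Figure D1:**
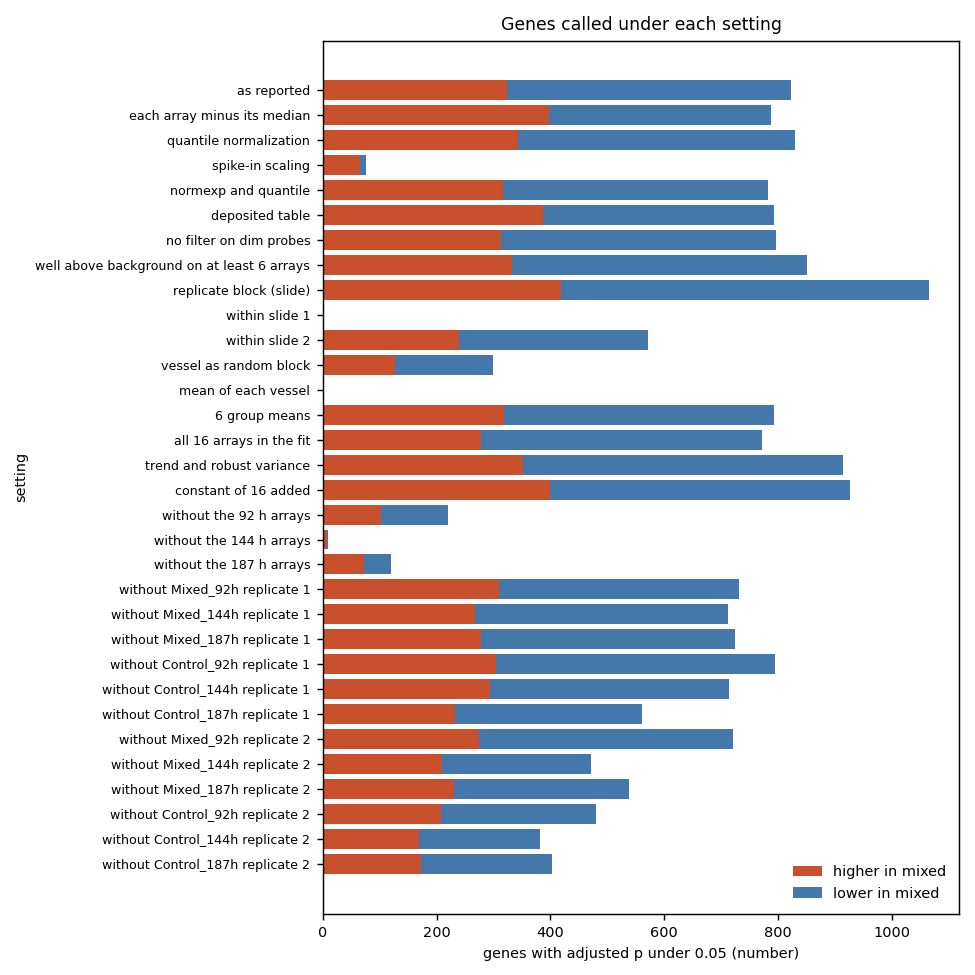
Number of genes called higher and lower in mixed (x axis, bars from 0) as reported and under each other setting (y axis). The count is 824 as reported, lies between 773 and 1066 under the settings from the array median to the constant of 16 other than spike-in scaling, the single slides and the vessel fits, and is lowest, apart from the single slide 1 and the vessel means with none, without the 144 h arrays, at 9.

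**Figure D2:**
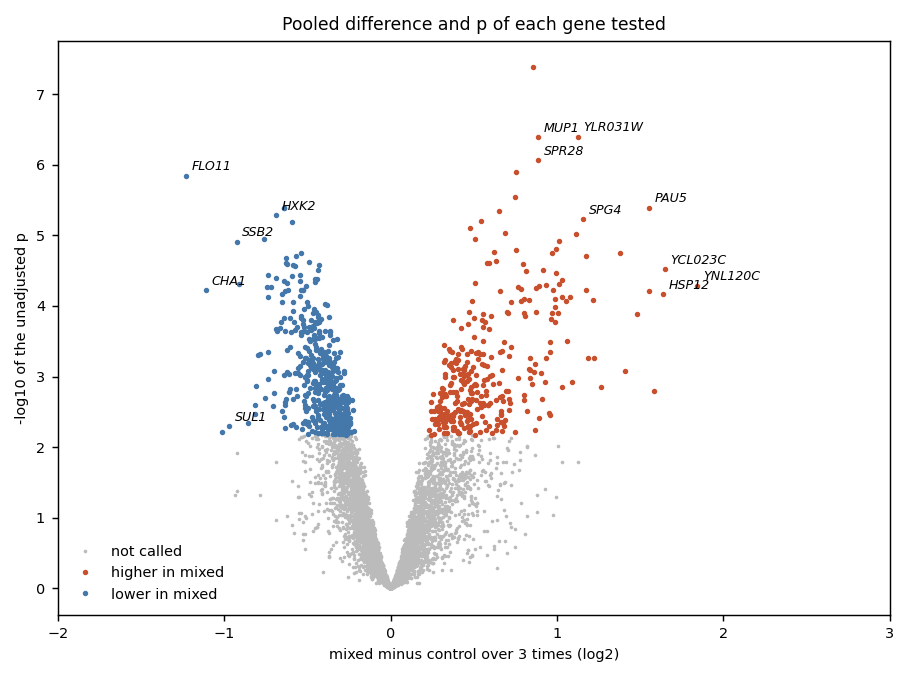
Difference between mixed and control fermentations pooled over 92, 144 and 187 h (x axis, log2) and -log10 of the unadjusted limma p (y axis) for each of the 6162 genes tested. Of the coloured points 324 lie to the right and 500 to the left, and the right side reaches 1.84 where the left ends at -1.23.

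The clearest group among the higher genes was the seripauperins, the PAU family of small cell wall mannoproteins that yeast is known to express without oxygen. All 24 members tested rose (background 5.26%), by 0.49 to 1.56, with a median of 0.98. Taken as the median of the family, the level ran from 2.43 to 3.35 with a median of 2.84 on the mixed arrays and from 1.56 to 2.01 with a median of 1.88 on the controls. The 2 kinds did not overlap, and each of the 24 genes also had both mixed arrays above both controls at all 3 times. The family's median difference was 1.16 at 92 h, 0.81 at 144 h and 0.91 at 187 h, and it was 0.84 on slide 1 and 1.13 on slide 2.

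PAU5 ran from 3.03 to 4.15 (median 3.63) on the mixed arrays and from 1.57 to 2.35 (median 2.04) on the controls. It differed 2.94-fold, by 1.55 ± 0.19 (adjusted p = 0.0025). PAU17 (1.55 ± 0.25), PAU7 (1.38 ± 0.20), PAU23 (1.22 ± 0.21) and PAU2 (1.12 ± 0.15) stood with it among the 15 largest rises, and for each of them all 6 mixed arrays lay above all 6 controls. Because PAU genes differ little in sequence, it is uncertain which of them gave the signal of a probe. All 24 stayed called without any single array, 23 with the vessel as a random block and 20 with spike-in scaling. Without the arrays of 92, 144 or 187 h, 15, 1 and 23 were called.

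Other genes of cell wall mannoproteins, known from growth with or without oxygen, moved less uniformly. Of 8 DAN, TIR and CWP genes 2 rose and 1 fell (all genes 5.26% and 8.11%). TIR2, a mannoprotein known from cold and oxygen-poor growth, rose by 0.87 ± 0.19 (adjusted p = 0.0153), and its level of 3.73 to 5.33 on the mixed arrays overlapped that of 3.13 to 4.57 on the controls over all times but not within any of them. TIR3 rose by 0.59 ± 0.15 (adjusted p = 0.0296), a call that held in only 5 of the 12 fits without 1 array: those without replicate 1 of mixed 144 or 187 h or of control 92 h, and without replicate 2 of mixed 92 h or control 144 h. CWP2, a major mannoprotein of cells grown with oxygen, fell by 0.58 ± 0.11 on the log2 scale (adjusted p = 0.00757), from 2.51 to 3.03 on the controls to 1.99 to 2.50 on the mixed arrays, with no overlap.

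Of 34 genes that make ergosterol or take up sterols 5 rose and none fell (all genes 5.26% and 8.11%). The difference was above 0 for 30 of the 34, with a median of 0.16 against -0.03 for all genes. AUS1, the transporter that imports sterols when they cannot be made, ran from -0.43 to 1.73 (median 0.92) on the mixed arrays and from -1.27 to 0.44 (median -0.61) on the controls. It declined with time in both kinds, and its difference stayed between 1.12 and 1.26 at the 3 times (pooled 1.19 ± 0.25, adjusted p = 0.0143). The other importer PDR11 (0.50 ± 0.11), the regulator of sterol genes UPC2 (0.50 ± 0.10, adjusted p = 0.00999), the putative regulator SUT2 (0.39 ± 0.08) and the synthase of the early pathway ERG13 (0.56 ± 0.12) made up the rest. UPC2 lay between -0.07 and 0.54 on the mixed arrays and between -0.27 and -0.08 on the controls, without overlap. The list's median difference was 0.40 at 92 h and 0.01 at 187 h. Without the arrays of 92, 144 or 187 h, 1, 0 and 0 of the 34 were called. Of 17 genes of hypoxia and heme regulation 3 rose, UPC2 among them, and none fell (all genes 5.26% and 8.11%). The other 14 did not pass. The median of the 17 was 0.29, with 0.20 on slide 1 and 0.07 on slide 2. Both mixed arrays lay above both controls at all 3 times for 4 of them and below for 2 (5.18% and 8.68% of all genes tested). The gene of smallest p of all, YML083C (0.86 ± 0.07, adjusted p = 0.000254), was picked out after its values were seen. It codes for a protein of unknown function whose transcript is known to be more abundant without oxygen. It ran from 0.82 to 1.59 on the mixed arrays and from 0.02 to 0.87 on the controls, and its difference was 0.88, 0.80 and 0.90 at the 3 times but -0.05 at 22 h.

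**Figure D3:**
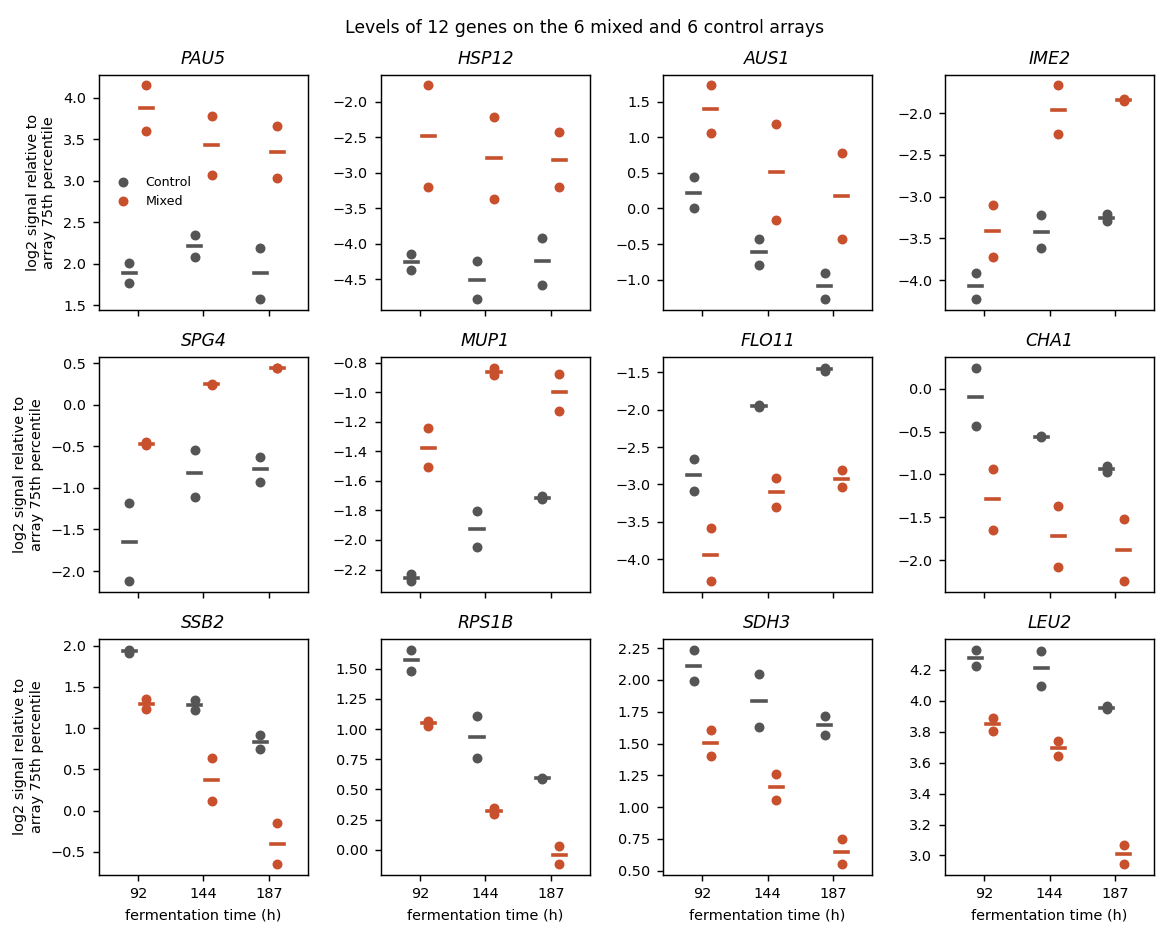
Level of 12 genes (y axis, log2 signal relative to the array's 75th percentile, a scale of its own in each panel) on each mixed and control array at 92, 144 and 187 h (x axis). Points are single arrays and bars the mean of the 2 arrays of a group; the kinds are apart at every time in each panel, upward in the first 6 genes and downward in the last 6.

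Of 47 genes of the general stress and stationary phase list 5 rose and 6 fell, with a median of 0.08 (all genes 5.26% and 8.11%). The counts were 3 and 2 with the vessel as a random block or without replicate 2 of mixed or of control 144 h, 0 to 3 and 0 to 1 without the arrays of 1 time, and 3 to 7 and 2 to 5 over the fits without 1 array. HSP12, a small membrane-stabilising heat shock protein, ran from -3.37 to -1.77 (median -2.82) in mixed and from -4.78 to -3.91 (median -4.31) in control fermentations. It differed 3.12-fold, by 1.64 ± 0.27 (adjusted p = 0.00518), with a slide mean of 0.92 on slide 1 and 2.37 on slide 2. At 22 h its difference was -0.10. SPG4, needed for survival in stationary phase at high temperature, ran from -0.49 to 0.45 against -2.13 to -0.54, also without overlap, and rose by 1.16 ± 0.15 (adjusted p = 0.00265). PHM7, a membrane protein regulated by phosphate supply, rose by 0.58 ± 0.09. In the same list HXK1 (-0.54 ± 0.10) and SOL4 (-0.49 ± 0.11), enzymes of hexose phosphorylation and of the pentose phosphate pathway, fell. Of 35 heat shock chaperones 33 did not pass the test, with a median of 0.02, and of 43 proteasome genes 42 did not, where 13.4% of all genes passed.

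Of 60 genes of meiosis and sporulation 11 rose and 1 fell (all genes 5.26% and 8.11%), with a median of 0.11. IME2, the protein kinase that drives entry into meiosis, ran from -3.73 to -1.67 (median -2.05) on the mixed arrays and from -4.23 to -3.21 (median -3.45) on the controls. It rose with time in both kinds, and the difference was 0.65 at 92 h, 1.46 at 144 h and 1.41 at 187 h (pooled 1.18 ± 0.17, adjusted p = 0.00402). SPR28, a septin of the spore membrane (0.89 ± 0.09, adjusted p = 0.00133), and DMC1, the meiotic recombinase (0.63 ± 0.09), rose as well, with no overlap of kinds at any time. SPS100, a spore wall protein, rose by 1.26 ± 0.30 (adjusted p = 0.0219), by 0.42 on slide 1 and 2.11 on slide 2. It was not called without the replicate 2 array of mixed 144 h or of control 92, 144 or 187 h. SPS4, another gene of mid-sporulation, fell by 0.61 ± 0.14 on the log2 scale. Without the replicate 2 control array of 92 h or of 187 h, 5 and 7 members rose, with the vessel as a random block 6, and without the arrays of 92, 144 or 187 h, 5, 1 and 2.

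In vitamin and sulfur metabolism named steps moved in opposite directions. Of 23 thiamine genes 7 rose and none fell (all genes 5.26% and 8.11%). They included the 4 near-identical genes THI5, THI11, THI12 and THI13 of pyrimidine synthesis, by 0.72 to 1.01, whose probes cannot be told apart with certainty, and THI22, a relative of the kinase that follows them. THI22 lay between -1.44 and -0.60 on the mixed arrays and between -2.15 and -1.33 on the controls, overlapping across but not within times, and rose by 0.76 ± 0.08 (adjusted p = 0.00147). The vessel block left 5 of the 7 called, and leaving out the arrays of 92, 144 or 187 h left 2, 0 and 5. Of 7 biotin genes, by contrast, 5 fell (all genes 8.11%) and none rose, around a median of -0.45 (-0.30 on slide 1 and -0.60 on slide 2). The biotin ligase BPL1 fell by 0.45 ± 0.07 on the log2 scale (adjusted p = 0.00486), the synthase BIO2 by 0.49 ± 0.10 and the biotin importer VHT1 by 0.48 ± 0.10. Over all times their levels overlapped with the controls, but at each time both mixed arrays lay below both controls. The biotin count was 3 with the vessel as a random block, 3 without replicate 1 of mixed 92 or 144 h or without replicate 2 of control 92, 144 or 187 h, and 1, 0 and 0 without the arrays of 92, 144 or 187 h.

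Of 32 sulfur and methionine genes 7 rose and 3 fell (all genes 5.26% and 8.11%). MET32, a transcription factor of sulfur assimilation, rose by 0.75 ± 0.09 (adjusted p = 0.00249), the cystathionine lyase STR3 by 0.79 ± 0.13 and the factor MET28 by 0.46 ± 0.10. MET28 ran from 1.52 to 2.10 on the mixed arrays and from 1.26 to 1.42 on the controls, without overlap. At 22 h the differences of MET32 and STR3 were -0.65 and -0.78. In contrast SAM4, which recycles S-adenosylmethionine with homocysteine, fell by 0.58 ± 0.13 and HOM2, of the shared aspartate branch, by 0.40 ± 0.08 on the log2 scale. The sulfate importer SUL1 fell by 0.97 ± 0.28 (adjusted p = 0.0422), but its call held only in the 3 fits without replicate 1 of the mixed arrays. The vessel block left 3 higher and 1 lower, and without the arrays of 92, 144 or 187 h the counts were 7 and 1, 0 and 0, and 1 and 0.

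Of 27 amino acid permeases 4 rose and 1 fell (all genes 5.26% and 8.11%). The counts were 2 and 0 with the vessel as a random block and 2 to 4 and 0 to 4 over the fits without 1 array. The 4 that fell were called without replicate 1 of control 187 h. MUP1, the high-affinity methionine permease, ran from -1.50 to -0.83 (median -1.01) on the mixed arrays and from -2.28 to -1.70 (median -1.93) on the controls, and rose by 0.89 ± 0.09 (adjusted p = 0.000837). Its slide means were 0.85 and 0.92, and the kinds did not overlap. UGA4, which imports 4-aminobutyrate, rose by 0.80 ± 0.12 (adjusted p = 0.00402), from 0.38 at 92 h to 1.14 at 187 h. Of 25 hexose transport genes 3 rose and none fell (all genes 5.26% and 8.11%). HXT5, a hexose transporter of slow-growing cells, ran from -2.60 to -1.05 against -3.51 to -2.27, apart at each time, and rose by 1.03 ± 0.17 (adjusted p = 0.0055), with slide means of 0.56 and 1.51. The acetate transporter ADY2 rose by 0.72 ± 0.12, and the cytosolic acetaldehyde dehydrogenase ALD6, which makes acetate, by 1.03 ± 0.25 (adjusted p = 0.0219). All 6 mixed arrays of ALD6, at 0.82 to 1.98, lay above all 6 controls, at -0.39 to 0.73. Yet ALD6 was not called without the replicate 2 mixed array of 144 h or with the vessel as a random block. Its call was also lost without the arrays of 92, of 144 or of 187 h.

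Several of the largest rises were of reading frames without a known product. YNL120C had the largest of all, 3.59-fold or 1.84 ± 0.30 (adjusted p = 0.00486), with levels of -4.72 to -2.68 on the mixed arrays and -6.17 to -4.84 on the controls. YCL023C (1.65 ± 0.25), YFL019C (1.22 ± 0.26), YGL188C (1.17 ± 0.19) and YLR031W (1.13 ± 0.11, adjusted p = 0.000837) followed. Of the 454 tested identifiers that the gene annotation used here did not hold, 51 were higher and 13 lower (11.2% and 2.86%, background 5.26% and 8.11%). YGL188C was dim, with levels between -9.64 and -4.77. These sizes depend on the processing: with normexp and quantile normalization YNL120C differed by 1.30, YCL023C by 0.54, YFL019C by 0.25, YGL188C by 0.32 and YLR031W by 0.73. The same setting gave 0.46 for ADY2, -0.17 for SPS4, -0.40 for PFF1, -0.55 for MAL12 and -0.63 for SUL1. It changed the spot signal, the background correction, an added offset and the scaling together. With only a constant of 16 added, YNL120C differed by 1.63, YCL023C by 1.215, YFL019C by 0.80, YGL188C by 0.78 and YLR031W by 1.005. Which step made the differences smaller was not tested. For 4 genes called higher the probe was not well above background on any control array, and the rise is only a bound: at least 2.22-fold for YPL073C, 1.93-fold for YAL034C-B, 1.61-fold for YML047W-A and 1.47-fold for YOR218C, taking the dim control signal as the higher of its own value and the lowest signal well above background.

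**Figure D4:**
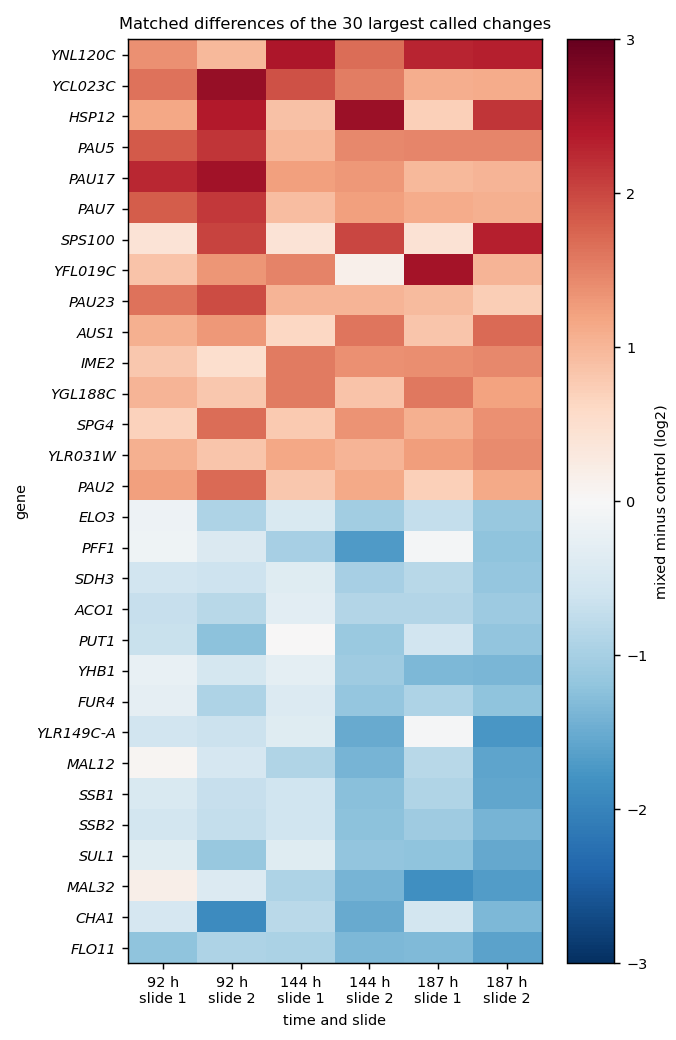
Difference between the mixed and the control array of the same time and slide (colour, log2) for the 15 largest called rises and the 15 largest called falls. Colours keep 1 direction along nearly all rows; MAL12 and MAL32 are close to 0 at 92 h, and SPS100 is paler on slide 1 than on slide 2.

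Among the lower genes the largest group was that of translation. Of 138 cytosolic ribosomal protein genes 92 fell and none rose (background 8.11% and 5.26%), by 0.27 to 0.73 on the log2 scale, and the median of the list was -0.39. The median level of the list was 1.93, 1.52 and 1.13 on the controls at 92, 144 and 187 h and 1.60, 1.04 and 0.81 on the mixed arrays, so it declined with time in both kinds and was lower in mixed at each time. The gap was smaller on slide 1 (-0.23) than on slide 2 (-0.55). It was smallest on slide 1 at 187 h, where the list stood at 0.94 in mixed and 0.97 in control. For 93 members both mixed arrays lay below both controls at all 3 times, as they did for 8.68% of all genes tested. RPS1B, of the small subunit, ran from -0.12 to 1.07 (median 0.32) against 0.59 to 1.66 (median 0.93) and fell by 0.59 ± 0.08 (adjusted p = 0.00265). RPS8A (-0.57 ± 0.08) and RPP0, of the ribosomal stalk (-0.54 ± 0.08), fell likewise. Many of these genes have a near-identical partner, so single members are uncertain.

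The count of ribosomal protein genes was 60, 60 and 61 without the replicate 2 control array of 92, 144 and 187 h. It was 57 with the vessel as a random block and 0 with spike-in scaling. Without the arrays of 92, 144 or 187 h it was 31, 0 and 17. Over all 6162 genes tested the counts of lower genes in those fits were 272, 213 and 230, then 173 and 10, then 118, 1 and 48. Under spike-in scaling the list median was -0.40. At 22 h it was 0.05.

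SSB1 and SSB2, the Hsp70 chaperones that bind nascent chains and are near-identical to each other, were the 2 called among 7 ribosome-associated chaperones (8.11% of all genes fell). SSB2 ran from -0.65 to 1.35 (median 0.37) in mixed and from 0.74 to 1.95 (median 1.28) in control fermentations, with the kinds apart at each time. It fell by 0.93 ± 0.13 (adjusted p = 0.00345), its difference going from -0.64 at 92 h to -1.23 at 187 h. Of 33 translation factors 9 fell and none rose (all genes 8.11% and 5.26%), with a median of -0.21. Elongation factor 1 alpha, from TEF1 (-0.49 ± 0.09) and its twin TEF2 (-0.46 ± 0.09), and elongation factor 2, from EFT1 (-0.50 ± 0.10), were among them. That count was 5 and 6 without replicate 1 of control 144 and 187 h, 4 with the vessel as a random block, and 4 without replicate 2 of mixed 144 h or of control 92, 144 or 187 h. It was 2, 0 and 0 without the arrays of 92, 144 or 187 h. Of 76 mitochondrial ribosomal proteins 1 rose and 10 fell (median -0.16), and of 86 ribosome biogenesis genes 3 rose and 10 fell (median -0.10). Over all genes 5.26% rose and 8.11% fell. In the fits without 1 array, 2 to 10 of the mitochondrial ribosomal proteins and 4 to 15 of the biogenesis genes fell. With the vessel as a random block 1 and 3 fell, where 173 of all 6162 genes tested fell in that fit.

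**Figure D5:**
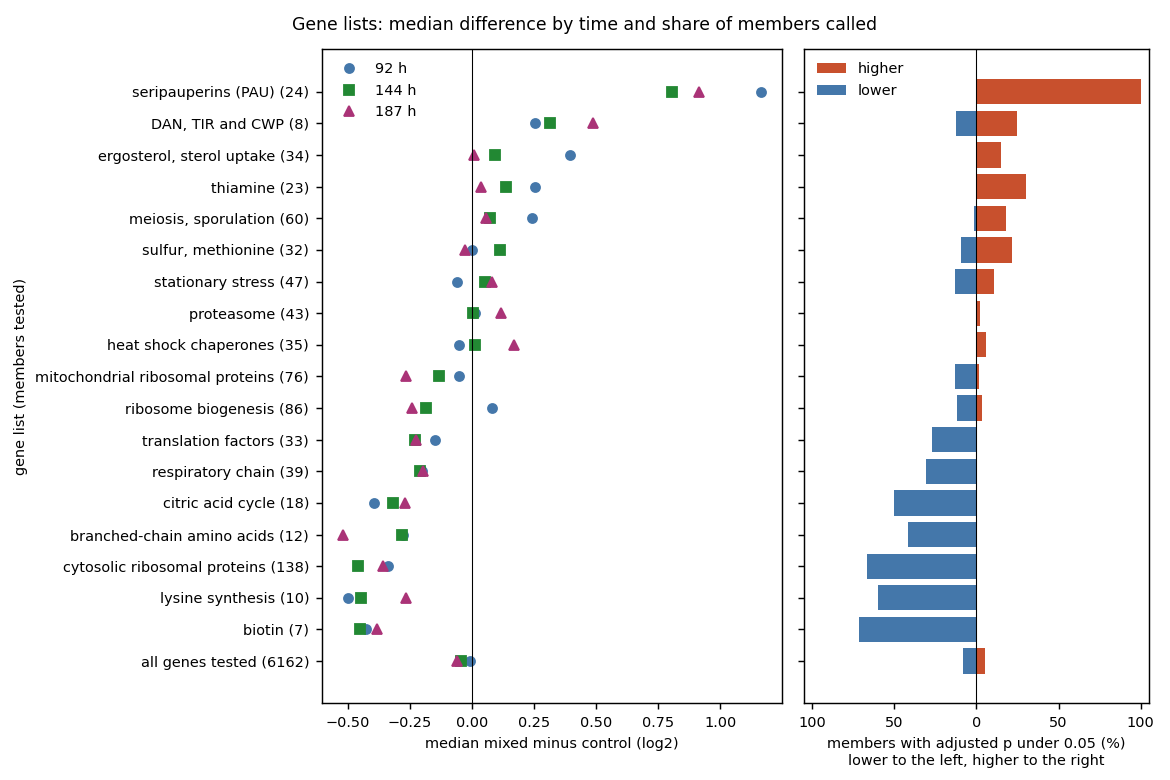
Left, the median mixed minus control difference at 92, 144 and 187 h (x axis, log2) for a selection from the 44 gene lists and for all genes tested. Right, the percentage of tested members called higher or lower in the pooled comparison. The PAU genes lie at 0.81 to 1.16 with 100% called higher; ribosomal protein, biotin, lysine and citric acid cycle genes lie below 0 at all 3 times, while all genes tested lie near 0.

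The citric acid cycle and the ATP synthase were lower in mixed fermentations. Of 18 genes of the cycle 9 fell and none rose (all genes 8.11% and 5.26%), with a median of -0.34. At all 3 times 14 were below 0, where 55.1% of all genes tested kept 1 sign, in either direction. FUM1, fumarase, lay between -0.12 and 0.56 on the mixed arrays and between 0.45 and 1.25 on the controls, apart at each time, and fell by 0.64 ± 0.08 on the log2 scale (adjusted p = 0.0025). Its slide means were -0.66 and -0.62. The aconitase ACO1 (-0.78 ± 0.16), the succinate dehydrogenase anchor SDH3 (-0.76 ± 0.10, adjusted p = 0.00345) and the citrate synthase CIT1 (-0.38 ± 0.09) fell as well, as did YHM2, a citrate carrier of the mitochondrial membrane (-0.64 ± 0.08, adjusted p = 0.0025). The 6 ACO1 levels in mixed ran from -0.33 to 0.78 and the 6 in control from 0.75 to 1.45. With the vessel as a random block 4 of the 18 were called, with spike-in scaling none, though the list median was then -0.35, and without the arrays of 92, 144 or 187 h 3, 1 and 2.

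Of 39 nuclear genes of the respiratory chain 12 fell and none rose (all genes 8.11% and 5.26%), with a median of -0.21. Subunits of the ATP synthase made up 9 of the 12, out of 14 tested, a division made after the values were seen, with a median of -0.38 against -0.09 over the other 25 genes. ATP4, of its stator, lay between 0.43 and 0.92 on the mixed arrays and between 1.18 and 1.46 on the controls, without overlap, and fell by 0.54 ± 0.09 (adjusted p = 0.00547). None of the 8 genes encoded by the mitochondrial genome passed the test, which 13.4% of all genes tested passed. Their median was 0.14 pooled and 0.10, -0.14 and 0.38 at 92, 144 and 187 h. The count of 12 became 7 without the replicate 2 control array of 92 h, 6 without that of 144 h, 5 with the vessel as a random block, 0 with spike-in scaling (list median then -0.22), and 3, 0 and 1 without the arrays of 92, 144 or 187 h.

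Genes of lysine and of branched-chain amino acid synthesis were lower in mixed fermentations. Of 10 lysine genes 6 fell and none rose (median -0.44), and of 12 genes of branched-chain amino acids 5 fell and none rose (median -0.39). Over all genes 8.11% fell and 5.26% rose. LYS12, homoisocitrate dehydrogenase, fell by 0.62 ± 0.10 (adjusted p = 0.00486), the homocitrate synthase LYS21 by 0.54 ± 0.10 and the reductase LYS2 by 0.56 ± 0.11. LEU2, of leucine synthesis, ran from 2.95 to 3.89 (median 3.69) on the mixed arrays and from 3.95 to 4.33 (median 4.16) on the controls, without overlap, and fell by 0.63 ± 0.09 (adjusted p = 0.00402). Its difference went from -0.43 at 92 h to -0.95 at 187 h. The dehydratase ILV3 (-0.63 ± 0.12) and the transaminase BAT2 (-0.53 ± 0.09), which also starts the route to fusel alcohols, fell too. With the vessel as a random block 3 lysine and 4 branched-chain genes were called, with spike-in scaling none (medians then -0.46 and -0.40), and without the arrays of 92, 144 or 187 h the counts were 2, 0 and 2 and 1, 0 and 2.

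Of 31 genes under nitrogen catabolite repression 4 fell and 1, UGA4, rose (all genes 8.11% and 5.26%), and with the vessel as a random block 2 fell. The 4 were PUT1, PUT2, the allantoate permease DAL5 (-0.61) and the 4-aminobutyrate transaminase UGA1 (-0.33, adjusted p = 0.0195). PUT2, the second enzyme of proline breakdown, ran from 1.85 to 2.57 on the mixed arrays and from 2.90 to 3.15 on the controls, without overlap, and fell by 0.74 ± 0.12 (adjusted p = 0.0055). PUT1, the first enzyme, fell by 0.79 ± 0.17 (adjusted p = 0.0136), by 0.41 on slide 1 and 1.18 on slide 2. CHA1, the deaminase of serine and threonine, fell 2.15-fold, by 1.11 ± 0.18 on the log2 scale (adjusted p = 0.00486). It ran from -2.25 to -0.94 (median -1.59) in mixed and from -0.97 to 0.25 (median -0.56) in control fermentations, a slight overlap over all times and none within a time. Its difference was -1.53 at 22 h, beside -1.20, -1.17 and -0.95 at the later times.

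The largest fall was that of FLO11, the cell surface flocculin of biofilms and invasive growth. Its level was -3.09 and -2.66 on the control arrays of 92 h and rose to -1.48 and -1.44 by 187 h, while on the mixed arrays it went from -4.30 and -3.58 to -3.03 and -2.81. FLO11 thus rose with time in both kinds and was lower in mixed at every time, by 1.23 ± 0.14 (adjusted p = 0.00147). The other 5 flocculin genes did not pass the test, which 13.4% of all genes tested passed. In sugar metabolism 1 of 33 genes of glycolysis and fermentation rose and 5 fell (all genes 5.26% and 8.11%), with a median of 0.01. HXK2, the main hexokinase of growth on glucose, fell by 0.69 ± 0.09 (adjusted p = 0.00265), with levels of -0.06 to 0.64 against 0.60 to 1.21. The near-identical maltases MAL32 (-1.01 ± 0.30, adjusted p = 0.0472) and MAL12 (-0.86 ± 0.25, adjusted p = 0.0402) were close to the controls at 92 h (-0.12 and -0.21) and lower at 187 h (-1.75 and -1.21). The MAL32 call held only without the replicate 1 mixed or the replicate 2 control array of 92 h. The MAL12 call held only without 1 of the replicate 1 mixed arrays or without the replicate 2 control array of 92 h. Of 18 genes of the glyoxylate cycle and gluconeogenesis 3 rose and 1 fell (all genes 5.26% and 8.11%), with a median of 0.06. The 1 that fell was MLS1, malate synthase of the glyoxylate cycle, by 0.62 ± 0.10 without overlap of the kinds. ADY2 (0.72), SIP4 (0.54) and ACS1 (0.36) rose.

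Among the remaining large falls, ELO3, which elongates fatty acids for sphingolipids, fell by 0.74 ± 0.12 (adjusted p = 0.00486) and kept its call without any single array. YHB1, a flavohemoglobin that detoxifies nitric oxide, fell by 0.81 ± 0.19, a call lost without the replicate 2 array of mixed or of control 144 h. FUR4, the uracil permease, fell by 0.82 ± 0.21 with all 6 mixed arrays below all 6 controls, but its call held only without 1 of the replicate 1 mixed arrays or without the replicate 1 control array of 92 h. PFF1, a vacuolar membrane protein, fell by 0.75 ± 0.19, a call lost without either control array of 144 h, or without replicate 2 of mixed or of control 187 h. The reading frame YLR149C-A fell by 0.82 ± 0.22, by 0.32 on slide 1 and 1.31 on slide 2. Its call was lost without replicate 1 of control 187 h or without replicate 2 of mixed 92 or 144 h or of any control.

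Whether the difference itself changed from 92 to 187 h was tested with the interaction of kind and time. No gene passed in limma, where 271 had an unadjusted p under 0.05. The median difference of the genes called higher was 0.40, 0.46 and 0.65 at 92, 144 and 187 h, and that of the genes called lower was -0.28, -0.39 and -0.51. The difference was largest at 187 h for 194 of the 324 and for 358 of the 500. The share of all genes tested with their largest difference at 187 h was not computed. These counts are therefore not shown to be particular to the called genes. The smallest interaction p belonged to PXP3, a peroxisomal protein with a dim probe (-0.26, -0.37 and 2.11 at the 3 times, adjusted p = 0.623). AGP1, an amino acid permease, differed by 1.93 at 92 h but 0.07 at 187 h, and OSW1, a spore wall gene, by 0.75 but -1.12 (adjusted p = 0.972 for both). Without the replicate 2 array of control 187 h 32 genes passed the interaction test, without that of mixed 187 h 16, and without replicate 1 of control 187 h or replicate 2 of control 144 h 1 each.

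The arrays of 22 h, which the pooled comparison did not use, give the same genes during growth. Of the 324 genes called higher later, 191 were higher in mixed at 22 h (59.0%, against 45.5% of all genes tested), and of the 500 called lower, 287 were lower (57.4%, against 54.5%). The median difference at 22 h was 0.08 for the first and -0.03 for the second. The PAU genes stood apart at 22 h also, with a median of 1.57, and THI13 differed by 2.90. HSP12, SPG4, IME2 and HXT5, in contrast, differed by -0.10, -0.42, -0.15 and -0.07. The test of the later differences against that at 22 h, over all 16 arrays, passed 0 of 6184 genes in limma (674 had an unadjusted p below 0.05), so none of these contrasts with 22 h is shown for a single gene. With the slide as a block 2 passed. Without the replicate 1 control array of 22 h 44 passed, without replicate 1 of mixed 22 h 5, and without replicate 2 of control 22 h 3. Among the smallest p-values were those of RTS3, linked to a protein phosphatase, with -0.72 at 22 h and 0.14, 0.62 and 0.89 later, and of CTT1, cytosolic catalase, with 1.26 at 22 h and -0.18, -0.06 and -0.45 later (adjusted p = 0.156 for both).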

How the data were processed

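Per the file headers, the deposited scanner files held spot intensity values from Feature Extraction 10.7.3.1, background-subtracted by that software, with 2 spots for each of 6256 gene probes. Per the labels, the deposited value table held log2 signals of the authors, of which at least 99.6% on each array equalled the log2 processed intensity, shifted by 1 constant, with a tolerance of 0.05, so it served only as an alternative. Whether the authors filtered probes is not stated in those sources.

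The processed intensity was taken as log2, 43 outlier spots on the 12 arrays were left out (the deposited files flag no gene spot as saturated), the 2 spots were averaged and the array's 75th percentile was subtracted. Probes well above background on at least 2 of the 12 arrays were kept, 6162, and 94 removed. limma 3.58.1 in R 4.3.3 fitted kind with time as a covariate (8 residual and 3.58 prior degrees of freedom), with Benjamini-Hochberg adjustment over all probes kept and a threshold of 0.05 for a call. The interaction used the same arrays, and the test against 22 h all 16. The number of arrays limits the precision. The fits were run on simulated data with independent noise on each array. Those data held no shared vessel or slide, so they cannot show whether the p-values hold where arrays share either.

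Replicate numbers paired the arrays through their slide: deviations of same-numbered mixed and control arrays correlated at 0.26, 0.26 and 0.10 at 92, 144 and 187 h. The reported fit has no replicate block; one with it was an alternative.

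Names came from a table of the R64 annotation, which matched 5756 identifiers by locus tag and left 500 as the files give them. Genes named were the 15 largest calls per direction with 1 sign at all times and above background on at least 1 array of each kind, up to 3 members per direction of 44 gene lists by smallest p, the calls of mixed sign, and the 5 smallest p of the interaction and of the test against 22 h; other names are marked or belong to a list count given in full. The members and lists were chosen with earlier results of these data known. Alternatives were other scalings (median, quantile, 7 spike-in probes), normexp with an offset of 50 on the median spot signal, the deposited table, other filters, slide and vessel blocks, other models, and single arrays or times left out. Promoter motifs were not searched. Figures and tables used matplotlib 3.10.9, numpy 2.4.6 and pandas 2.3.3 under Python 3.11.15.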

Additional observations from a re-analysis of the deposited data

Results flagged for a closer look

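Across the 155 genes named by rule, the 6 differences between the mixed and the control array of the same time and slide were searched for a single value far from the other 5 by Dixon's test at its 95% critical value. It marked 4 genes (2.58%); chance marks about 1 in 20 groups, but these genes were named mostly for large or small-p calls, so the share cannot be read against that. GAL2, the galactose permease, which also carries glucose, differed by 1.303 at 144 h on slide 2 and by 0.35 to 0.64 in the other pairs. For the other 3 the odd pair was 187 h on slide 1: the histone gene HTB2 differed by -0.62 there and by -0.28 to -0.11 elsewhere, the peroxin gene PEX8 by -0.49 and by -0.28 to -0.19, and the glycogen synthase gene GSY1 by -0.47 and by -0.32 to -0.23. In all 4 the odd pair has the sign of the other 5.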

How the results depend on the processing

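The 824 calls (324 higher, 500 lower, 822 with 1 sign at all times) changed by more than 1.5 times under these settings, in that order of counts: spike-in scaling (76, 66, 10 and 74), the vessel as a random block with a correlation of 0.16 (299, 126, 173 and 299), without the 92 h arrays (220, 102, 118 and 220), without the 144 h arrays (9, 8, 1 and 9) and without the 187 h arrays (120, 72, 48 and 120). Slide 2 alone called 572, of which 333 were lower, and slide 1 alone 0, with 757 at an unadjusted p under 0.05 in limma. The mean of each vessel, 2 against 2, called 0, with 1103 at an unadjusted p under 0.05 in limma. In both vessel fits a vessel is the same-numbered arrays of a kind, an assumption that the labels do not settle. Without single arrays the counts ran from 382 to 795, 169 to 310, 213 to 491 and 382 to 792. Spike-in scaling and the vessel fits used all 12 arrays, while the fits on 1 slide or without some arrays held fewer. The cause of these losses was not tested.

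The replicate block, which is the slide, called 1066 genes and held 823 of the 824; it lost no call among the genes named by rule, 147 of 147. It called 2 genes in the test against 22 h and 0 in the interaction. Without single arrays the interaction called 0 to 32 genes and the test against 22 h 0 to 44.

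Of the calls 39.3% were higher as reported, 50.4% (397 and 391) with each array minus its median and 48.7% (387 and 407) in the deposited table. With spike-ins 86.8% were, of 76 calls, while the median difference of all genes was -0.05 against -0.03. No gene named by rule and called changed sign under any setting. Of 147 such genes 94 kept their call without any single array, 86 with the vessel block, 84 in both and 28 with spike-in scaling. The other settings gave 773 to 1066 calls. Kind lies on 1 row of each slide, the duplicates are 2, and probes near background carry only a bound.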
